A study of Arabidopsis thaliana with 8 samples.

Results

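The genes described here had a large estradiol response in VND7XVE cells and a smaller one or none in SND1XVE cells. They were chosen by measured signals. A probe set is the group of probes on the array that reads 1 transcript. Signals were transformed to log2(signal + 16), and the effect in a line is the mean of its 2 estradiol arrays minus the mean of its 2 control arrays. A member has an effect of at least 2 in VND7XVE, an effect under 1 in SND1XVE, and a signal of at least 100 on both VND7XVE estradiol arrays. The rule kept 106 of 22746 probe sets (0.466%, array controls left aside), and 64 of them name 1 gene. A further 5 probe sets met the thresholds but belong to loci left out by name (AT5G40020, AT4G08160, AT5G51890, AT1G63520 and CYP71B21). Since 16 is added before the logarithm, an effect under 1 allows a dim signal to rise more than 2-fold. All 8 arrays entered the choice of members, so their effects and levels are given as a description with no test.

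Total RNA came from Arabidopsis thaliana protoplasts, plant cells freed of their walls, in 4 groups of 2 arrays. The SND1XVE control and VND7XVE control groups received cycloheximide, a blocker of protein synthesis, and the SND1XVE estradiol and VND7XVE estradiol groups received cycloheximide with estradiol. Cycloheximide is thus shared by all groups, and the design asks which genes each factor switches on without new protein. Cells lacking both constructs are not among these arrays, so responses to the hormone and to the factors cannot be told apart. The labels give no plant age, tissue or promoter, and do not say that the 2 arrays of a group came from separate cultures, so SEs and p-values reflect only array-to-array spread, possibly technical.

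SND1 and VND7 are related transcription factors of the NAC family. SND1 acts in fibres, whose thick walls support the stem. VND7 acts in vessel elements, the water-conducting cells, which lay down a patterned secondary wall of cellulose, xylan and lignin and then die, clearing their contents by their own hydrolases. VND7 is known to induce vessel element formation when expressed in other cells.

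Depth and quality of the arrays bear on what follows. Array medians lay between 99.0 and 109.9 intensity units, and log2 signals of replicates correlated at 0.977 to 0.985. The ratio of 3' to 5' actin signal, a sign of RNA integrity, was 2.80 to 3.30 on the SND1XVE arrays and 3.72 to 4.64 on the VND7XVE arrays. Within VND7XVE it was 3.72 and 4.16 in controls against 4.64 and 3.98 with estradiol. The same ratio for GAPDH, another control transcript, did not separate the lines. It was 0.94 to 1.08 on the SND1XVE arrays and 0.95 to 1.02 on the VND7XVE arrays. Of 8 mesophyll markers, genes of photosynthetic leaf cells, 2 were named by the annotation. Their summed signal was 4904.9 to 5153.4 in SND1XVE controls against 4855.2 to 5433.5 with estradiol, against 8235.7 to 8362.9 and 7905.9 to 7947.6 in VND7XVE. The sums thus differed between the lines with and without estradiol, mostly through the marker LHCB4.1. Its mean control signal was 2688.4 in SND1XVE against 5536.9 in VND7XVE, while that of the marker RCA was 2340.8 against 2762.4. With estradiol the means were 2747.0 against 5294.1 for LHCB4.1 and 2397.4 against 2632.6 for RCA. The part of this difference in the results was not tested. The estradiol effects of these markers, RCA and LHCB4.1, were -0.07 and -0.06 in VND7XVE and 0.04 and 0.03 in SND1XVE. The guard cell gene FMA had signals of 49.1 to 118.3 over the arrays. None of these markers was at 0, and those of phloem and cambium were not named by the annotation. In bulk samples fewer cells of a type and less RNA per cell cannot be told apart. No probe set is named SND1 or VND7 in the annotation, and the factors themselves were not analysed here.

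Across the 106 members the median signal was 26.0 in VND7XVE controls against 469.5 with estradiol, and 28.5 and 31.2 in SND1XVE. The signals with VND7XVE estradiol ran from 105.8 to 12093.8. The median VND7XVE effect was 2.90 and the median SND1XVE effect 0.31, beside medians of -0.03 and 0.02 over the 14768 probe sets above the low-signal filter. Effects of at least 3 numbered 46, of at least 4 numbered 27 and of at least 5 numbered 12. The 2 VND7XVE estradiol arrays differed by a median of 0.13 on the log2 scale and by at most 0.69. All 106 members passed the low-signal filter, and 48 did so through the VND7XVE estradiol arrays alone, since their signal was under the 40th percentile on each of the other 6 arrays. For these 48 the SND1XVE effect compares dim signals with dim signals.

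**Figure D1:**
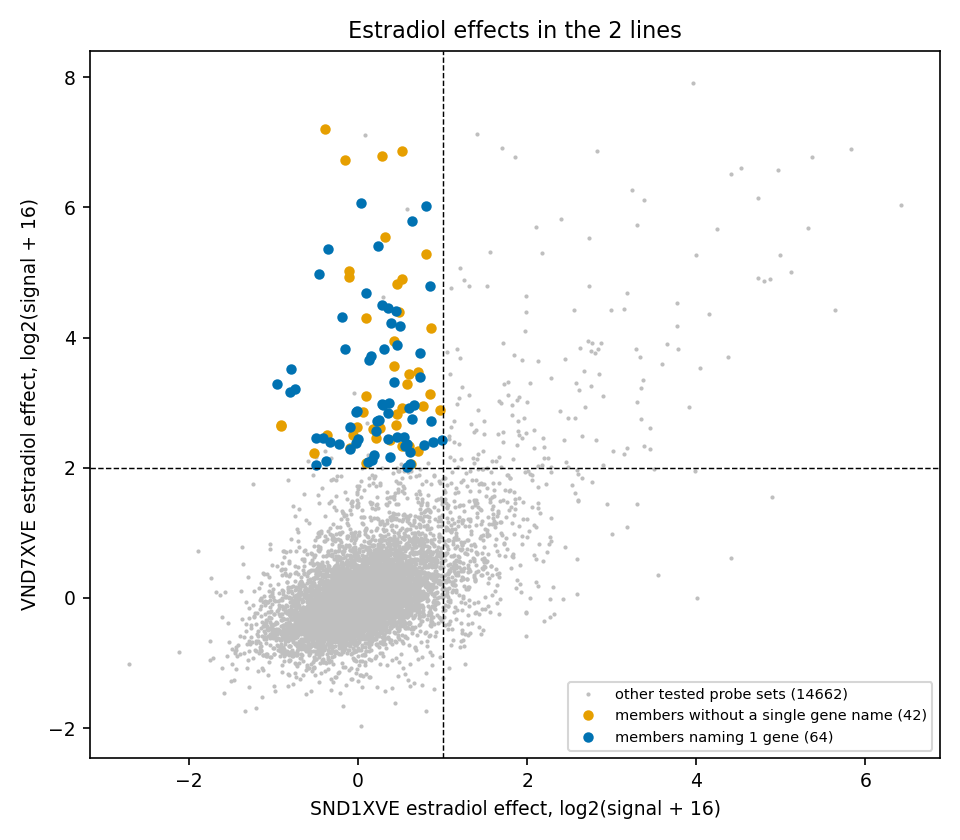
Estradiol effect in SND1XVE (horizontal axis) and in VND7XVE (vertical axis) on the log2(signal + 16) scale, 1 point per probe set above the low-signal filter, with dashed lines at the thresholds of 1 and 2. The members fill the upper left region by choice, from 2.01 to 7.20 in VND7XVE and from -0.96 to 0.99 in SND1XVE.

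Roles were given to 38 of the 64 named members after their values were seen, so the numbers per role below are not counts over all 106. AT4G18425 encodes the membrane protein DMP4, a known marker of developmental cell death in plants. Its signals were 23.3 and 28.1 in VND7XVE controls against 2126.0 and 2453.6 with estradiol. In SND1XVE they were 5.7 and 17.6 in controls against 22.4 and 29.8 with estradiol. The estradiol arrays were higher in both lines, by an effect of 5.79 ± 0.27 in VND7XVE and 0.64 ± 0.27 in SND1XVE. The SE here and below is moderated, from an estimate of spread shared by the 4 groups of 2 arrays. It is therefore equal in both lines. AT2G14095, which is EXITUS1, another marker of developmental cell death, had signals of 5.4 and 4.0 in VND7XVE controls against 279.0 and 272.8 with estradiol. It stayed between 3.7 and 22.7 on the SND1XVE arrays, whose groups overlapped, and its VND7XVE effect was 3.82 ± 0.45. Both genes had signals of at most 29.8 on every array but those of VND7XVE with estradiol.

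Proteins that act on or bind wall polysaccharides formed a group of 5 members with a median VND7XVE effect of 2.44. AT1G23460, of the polygalacturonase family that cuts pectin, had signals of 276.1 and 231.2 in VND7XVE controls against 7956.9 and 6958.0 with estradiol. In SND1XVE the signals were 78.6 and 60.5 against 121.7 and 153.9. Estradiol arrays were higher than controls in both lines, with effects of 4.79 ± 0.16 and 0.85 ± 0.16, and the VND7XVE controls already exceeded all SND1XVE arrays. Its probe set is 1 of 3 among the members whose suffix marks probes shared with related transcripts, so a relative may add to the signal.

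AT4G24430, of the rhamnogalacturonate lyase family, which cuts the branched part of pectin, went from 9.1 and 69.2 in VND7XVE controls to 1007.0 and 1050.6 with estradiol. On the SND1XVE arrays it lay between 22.8 and 54.9 with overlapping groups. AT5G15740, the rhamnosyltransferase RRT1 that builds that same pectin, was 1 of the smallest responses, with 31.3 and 21.0 against 175.2 and 138.0 in VND7XVE. Its effect of 2.04 lies next to the threshold. AT5G67460, of the glycosyl hydrolase family that includes beta-1,3-glucanases, stood at 2.44 ± 0.28. AT2G41800, of a family of wall proteins that bind polysaccharides, stood at 2.24 ± 0.36.

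Proteins of redox chemistry included AT1G10810, of the aldo-keto reductase family. Its signals were 2.4 and 3.3 in VND7XVE controls against 786.6 and 789.0 with estradiol, while all SND1XVE arrays were between 5.4 and 11.2. The effect was 5.41 ± 0.37. AT5G15180 encodes a class III peroxidase, a family that oxidises lignin monomers in the wall. It went from 2.9 and 20.0 to 171.9 and 178.7 in VND7XVE and lay between 1.4 and 2.9 on the SND1XVE arrays. AT5G26330, of the cupredoxin family of blue copper proteins, had effects of 2.84 ± 0.42 in VND7XVE and 0.36 ± 0.42 in SND1XVE. The glutaredoxin family gene AT1G32760 had 5.0 and 25.1 in VND7XVE controls against 118.9 and 180.5 with estradiol, an effect of 2.47 ± 0.40.

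Among the members with a role, 4 encode transcription factors. AT5G25470, of the B3 family, had signals of 1.9 and 12.6 in VND7XVE controls against 204.8 and 183.6 with estradiol. In SND1XVE its signals were 19.0 and 26.9 in controls against 2.2 and 13.4 with estradiol, so the estradiol arrays were below the controls there. These SND1XVE signals were dim, and 24.6% of the probe sets above the low-signal filter had this order of arrays in SND1XVE. The effects were 3.21 ± 0.46 and -0.74 ± 0.46. NGA2 is a B3 factor of the NGATHA group, known from style and leaf development. It went from 82.1 and 123.0 to 634.6 and 555.8 in VND7XVE and lay between 73.3 and 118.6 on the SND1XVE arrays, whose groups overlapped. Its SND1XVE effect of -0.03 ± 0.23 was 0.27 without SND1XVE control replicate 2 and -0.32 without SND1XVE control replicate 1. AT4G08250, of the GRAS family, and AT4G16610, of the C2H2 zinc finger family, had VND7XVE effects of 2.40 ± 0.41 and 2.46 ± 0.39. Their signals with VND7XVE estradiol, 102.2 and 109.4 for AT4G08250 and 119.0 and 101.8 for AT4G16610, were close to the minimum of 100. In controls the log2 difference of VND7XVE minus SND1XVE was -1.17 for AT4G08250 and -1.47 for AT4G16610, and the rule favours members with low VND7XVE controls.

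Signalling proteins made up 6 members, with a median VND7XVE effect of 2.81 and a median SND1XVE effect of 0.59. AT4G28650 is PXL2, a receptor kinase related to PXY, the receptor that keeps vascular stem cells dividing. Its signals were 37.1 and 37.4 in VND7XVE controls against 487.1 and 535.7 with estradiol, an effect of 3.31 ± 0.48. In SND1XVE they were 1.6 and 40.1 in controls against 9.8 and 52.6 with estradiol. The arrays numbered 1 in SND1XVE were both low and those numbered 2 both high, and its SND1XVE effect of 0.42 became 1.26 without SND1XVE control replicate 2 and -0.42 without control replicate 1.

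AT5G59845, of the family of small gibberellin-regulated peptides, had the largest effect of these genes, 3.71 ± 0.25. It had 89.9 and 76.2 in VND7XVE controls against 1354.2 and 1201.6 with estradiol. In SND1XVE the mean was 15.9 ± 3.11 in controls against 19.6 ± 6.29 with estradiol (SD, n = 2), with overlapping groups, and both VND7XVE controls were higher than any SND1XVE array. AT5G27930, a protein phosphatase of type 2C, had 129.5 and 111.5 against 835.7 and 916.6 in VND7XVE. Its SND1XVE signals were 102.0 and 96.9 in controls against 171.6 and 218.3 with estradiol, so that it was higher with estradiol in that line too. The leucine-rich repeat gene AT2G19780 had the SND1XVE effect closest to the threshold, 0.99 ± 0.38. AT3G13672 (SINA2), related to ubiquitin ligases of the SINA family, stood at 2.92 ± 0.52 in VND7XVE, and the protein kinase gene AT2G43230 at 2.01 ± 0.46.

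Of 5 members of metabolism, CHIL had the largest effect, 3.88 ± 0.35. CHIL is a chalcone isomerase-like protein without catalytic activity that promotes flavonoid synthesis. Its signals were 23.6 and 25.8 in VND7XVE controls against 558.2 and 608.0 with estradiol, and 2.8 and 3.9 against 9.8 and 11.4 in SND1XVE. Estradiol arrays were higher than controls in both lines, though the SND1XVE signals stayed under those of the VND7XVE controls. AT1G43580, of the sphingomyelin synthase family, went from 112.5 and 123.6 to 1876.2 and 1738.6 in VND7XVE, and from 145.9 and 119.9 to 233.7 and 227.4 in SND1XVE. The carbohydrate kinase gene AT1G06020, of a family that includes fructokinases, went from 7.9 and 43.8 to 449.3 and 477.9 in VND7XVE, and its SND1XVE groups overlapped.

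A pair of members belongs to the BAHD acyltransferase family, which transfers acyl groups to phenolics, alcohols and amines. AT3G62160 had 50.3 and 36.1 in VND7XVE controls against 502.4 and 623.5 with estradiol. In SND1XVE the mean was 58.0 ± 8.41 in controls against 22.6 ± 9.26 with estradiol (SD, n = 2), without overlap, so the estradiol arrays were higher in 1 line and lower in the other. Its SND1XVE effect of -0.96 ± 0.28 was the lowest of the members, and its VND7XVE effect was 3.29 ± 0.28. AT5G07080 stood at 2.37 ± 0.42 and -0.23 ± 0.42.

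The largest effect of a member linked to membranes and traffic was that of AT3G52900, of a family of coiled-coil proteins related to golgins. It went from 2.8 and 11.6 to 1539.1 and 1384.7 in VND7XVE, an effect of 6.02 ± 0.37. In SND1XVE it had 2.2 and 1.5 in controls against 7.2 and 25.9 with estradiol, an effect of 0.80 ± 0.37. That effect was 1.23 without SND1XVE estradiol replicate 1 and 0.38 without SND1XVE estradiol replicate 2. AT1G13920, of the remorin family of plasma membrane proteins, had 2.7 and 4.5 in VND7XVE controls against 210.1 and 202.6 with estradiol, and 36.2 and 33.9 against 14.7 and 12.2 in SND1XVE. Its controls differed between the lines by -1.38 (VND7XVE minus SND1XVE, log2), and estradiol arrays were above controls in VND7XVE and below them in SND1XVE. Its SND1XVE signals were all dim. ARLA1A, a small GTPase of the ADP-ribosylation factor-like group, went from 243.1 and 200.5 to 1078.4 and 950.3. AT1G13310, with a BRO1-like domain of endosomal sorting proteins, had 15.5 and 54.6 against 178.8 and 178.5, only slightly above the highest SND1XVE estradiol array at 147.6.

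AT3G53040, a late embryogenesis abundant protein, and AT5G18970, of a family of plasma membrane proteins, had VND7XVE effects of 2.99 ± 0.50 and 2.96 ± 0.42. Their SND1XVE groups overlapped. The 6 members grouped as protein and RNA handling spanned a narrow range of VND7XVE effects, 2.33 to 2.74. Among them AT1G69680, a relative of yeast Mog1 that binds the nuclear transport GTPase Ran, had the highest controls of the named members. It had 1575.5 and 1499.4 in VND7XVE controls against 8675.7 and 7445.2 with estradiol, and 1965.7 and 1988.4 against 3057.6 and 2865.4 in SND1XVE. Estradiol arrays were above controls in both lines, with effects of 2.37 ± 0.10 and 0.58 ± 0.10. The others were AT1G59850 (an ARM repeat protein, 2.74), AT2G18720 (a translation factor family, 2.63), AT5G39350 (a pentatricopeptide repeat protein, 2.57), AT2G37670 (a WD40 protein, 2.40) and AT5G14230 (an ankyrin repeat protein, 2.33).

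**Figure D2:**
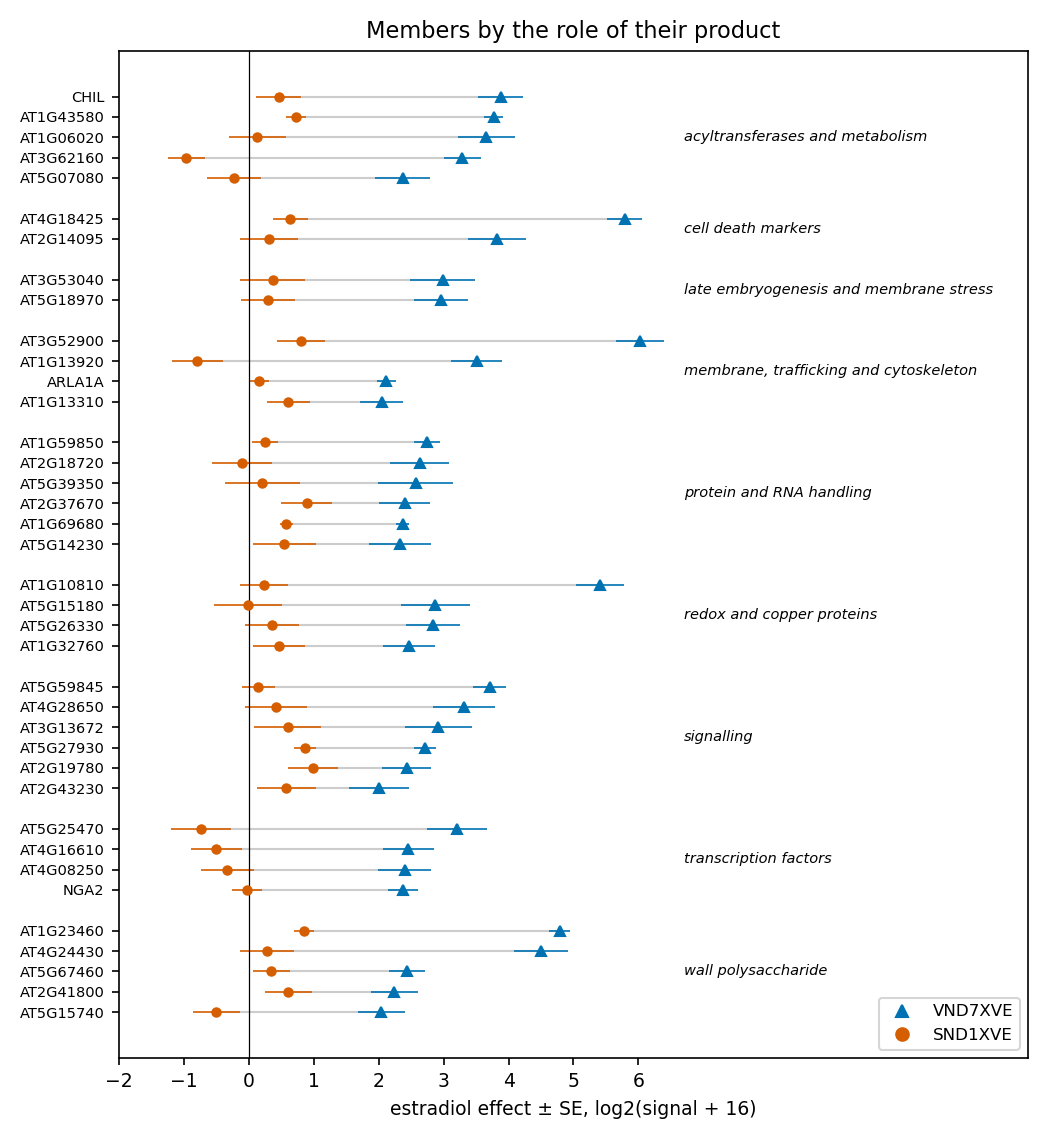
Estradiol effects with their moderated SE on the log2(signal + 16) scale for the 38 members placed in a role group, with triangles for VND7XVE and circles for SND1XVE. The 4 transcription factor genes have SND1XVE effects from -0.74 to -0.03, and the signalling genes from 0.15 to 0.99.

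Named members to which no role is given here number 26, with a median VND7XVE effect of 2.97, and they include the largest named effect. AT5G19870 had 8.2 and 6.1 in VND7XVE controls against 1514.5 and 1532.5 with estradiol, while the SND1XVE arrays lay between 6.1 and 10.7. Its effects were 6.06 ± 0.32 and 0.03 ± 0.32. AT2G44260 had 52.6 and 49.2 against 2092.1 and 2086.1 in VND7XVE, and in SND1XVE 15.6 and 5.5 in controls against 3.4 and 2.6 with estradiol, below the controls. These SND1XVE signals were all dim. AT3G55720 went from 20.1 and 3.3 to 670.0 and 663.7 and lay between 1.2 and 2.7 on the SND1XVE arrays. For both of these genes every VND7XVE control array exceeded every SND1XVE array.

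AT5G45320, AT1G58070, AT1G21810, AT3G07510 and AT1G68500 had VND7XVE effects of 4.45, 4.41, 4.32, 4.23 and 4.18, and overlapping groups in SND1XVE. Their VND7XVE estradiol signals ran from 545.5 (AT1G58070) to 1075.1 (AT3G07510). AT4G37445 went from 42.1 and 4.3 to 459.9 and 477.9, so its VND7XVE controls were far apart while its estradiol arrays were close. AT3G54040 had 57.8 and 13.0 in VND7XVE controls against 457.6 and 482.5 with estradiol, and 112.2 and 97.3 against 144.6 and 233.7 in SND1XVE. Among the 24 largest named effects it had the least distance to the other arrays, its lower VND7XVE estradiol signal being 1.96 times the highest of the other 6. AT1G10800, given with the gene beside it, stood at 5.36, and the remaining genes of this kind had effects between 2.09 (AT1G16500) and 3.16 (AT1G04490).

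**Figure D3:**
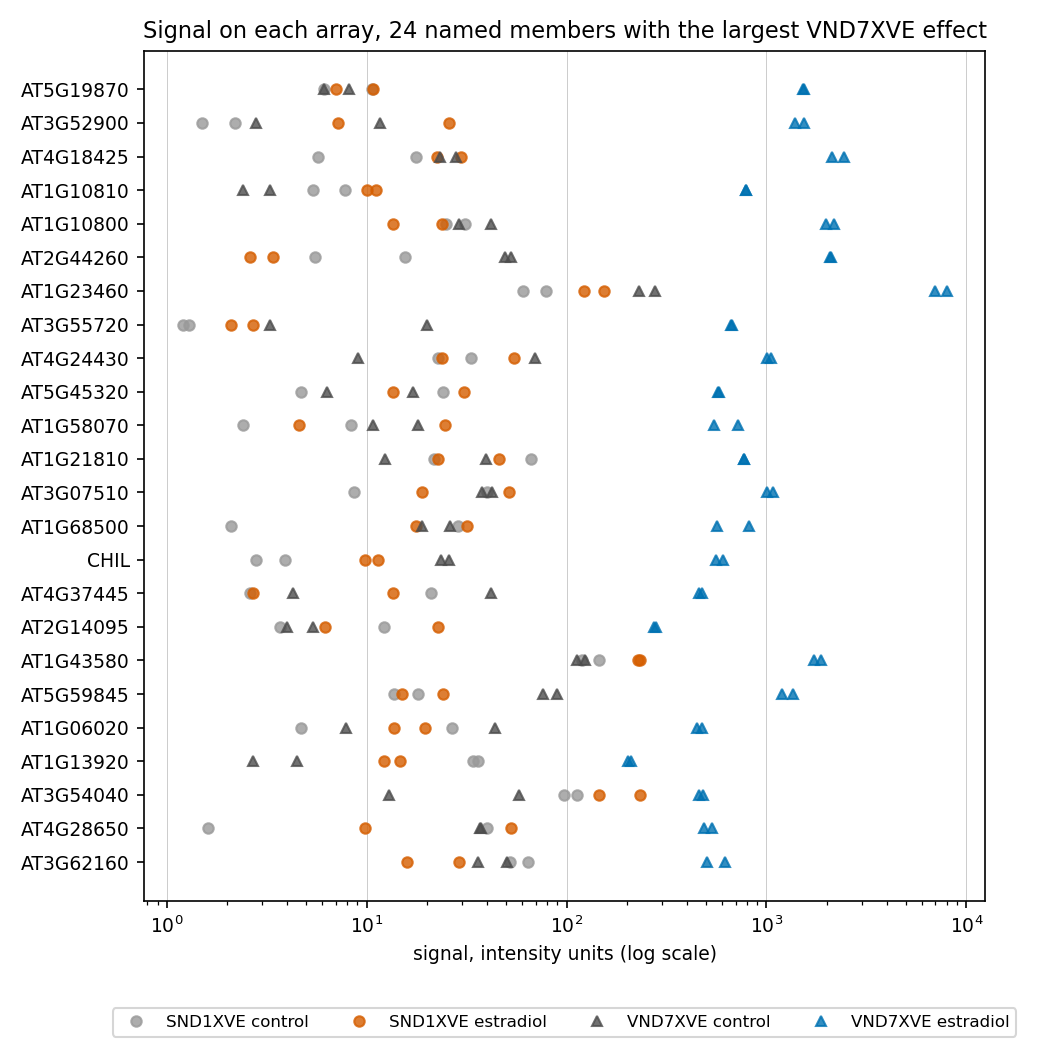
Signal in intensity units on a log axis for the 24 named members with the largest VND7XVE effect, 1 point per array. On the VND7XVE estradiol arrays the signals lie between 202.6 (AT1G13920) and 7956.9 (AT1G23460), above the other 6 arrays for each gene, while SND1XVE estradiol arrays mix with the controls for many of them.

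The annotation gives no gene name for the other 42 members, whose median VND7XVE effect was 2.93. The largest of them had 42.1 and 61.9 in VND7XVE controls against 9739.1 and 10004.2 with estradiol, an effect of 7.20. The next had 51.0 and 70.7 against 8887.2 and 8798.8, an effect of 6.86. Their SND1XVE signals stayed at or below 56.6.

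The wording "not SND1" holds only as an effect under 1. In SND1XVE both estradiol arrays exceeded both controls for 40 members (37.7%, beside 27.9% of the tested probe sets), were below both for 13 (12.3%, beside 24.6%) and overlapped them for 53. The rule set an upper bound on this contrast, so nothing is read from these shares. The SND1XVE effect was at least 0.5 for 33 members and at most -0.5 for 7. With a pseudocount of 1, which weights dim signals more, the SND1XVE effects of AT4G18425, CHIL and AT3G52900 were 1.27, 1.42 and 2.39, above the ceiling of the rule. Both SND1XVE estradiol arrays had signals of at least 100 for 17 members, 11 of them named. Picking by this signal favours estradiol arrays above controls, and no share over like probe sets was taken. So nothing is read from the 10 named ones in which both estradiol arrays were above both controls. Besides genes already described, these include AT1G01240 (121.4 and 124.0 against 221.6 and 222.1 in SND1XVE) and AT2G17710 (88.0 and 76.6 against 134.7 and 139.1). Some of them were dim in VND7XVE controls, such as AT3G54040 and AT1G13310.

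For 105 of the 106 members both VND7XVE estradiol arrays were above all other 6 arrays, as they were for 10.6% of the tested probe sets, and nothing is read from this, since the rule used these arrays. The exception is a probe set with no gene name. It had 22.2 on both VND7XVE controls and 164.4 and 125.0 with estradiol, against 167.8 and 152.5 in SND1XVE controls against 258.1 and 255.1 with estradiol, so it was higher in SND1XVE cells throughout. AT2G43230 was close to this, with 102.5 on its lower VND7XVE estradiol array and 99.5 on 1 SND1XVE estradiol array.

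The control arrays entered the rule, so nothing is read from how the members compared between the lines without estradiol. VND7XVE controls were both above the SND1XVE controls for 27 members (25.5%, beside 30.9% of the tested probe sets) and both below for 26 (24.5%, beside 31.2%), with a median difference of 0.01 on the log2 scale. Among named genes AT1G23460 and AT5G59845 were higher in VND7XVE controls, by 1.66 and 1.63. AT4G16610 and AT1G13920 were lower, with differences of -1.47 and -1.38.

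Values of named genes next to the thresholds show where the choice was made, with unnamed probe sets left aside. Just inside the VND7XVE threshold lay AT2G43230 (2.006), AT5G15740 (2.036) and AT1G13310 (2.045), and just outside it AT5G62960 (1.999), AT3G22104 (1.989) and BGLU41 (1.978). For the SND1XVE threshold AT2G19780 (0.994), AT2G37670 (0.887) and AT5G27930 (0.861) lay inside, and AT1G24600 (1.049), AT5G04390 (1.08) and AT5G15940 (1.1) outside. For the signal minimum AT4G16610 (101.8), AT4G08250 (102.2) and AT2G43230 (102.5) lay inside and AT1G21340 (91.4), AT2G44000 (89.4) and AT5G01860 (70.8) outside, by their lower VND7XVE estradiol array.

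By way of comparison, 88 probe sets had effects of at least 2 in both lines, and 66 had at least 2 in VND7XVE and from 1 to under 2 in SND1XVE, with the same signal minimum. Thresholds mirrored between the lines gave 21 probe sets with an SND1XVE effect of at least 2 and a VND7XVE effect under 1. Loci were left out by name from the members only, not from these comparison sets. Median signals in VND7XVE controls were 26.0 for the members, 61.3 for the probe sets of both lines and 65.4 for the intermediate ones. With VND7XVE estradiol they were 469.5, 1145.0 and 824.0. These sets are defined by the same effects, so the values describe them and were not tested.

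The members are spread over the chromosomes. Of 63 member loci that the reference lists as protein-coding, 20 are on chromosome 1 (31.7%, beside 26.3% of tested named loci), 10 on chromosome 2 (15.9% beside 14.6%), 10 on chromosome 3 (15.9% beside 20.0%), 6 on chromosome 4 (9.5% beside 14.5%) and 17 on chromosome 5 (27.0% beside 23.7%). AT1G10800 and AT1G10810 are next to each other on chromosome 1, and are the only adjacent pair among the named members. AT1G10800, to which no role is given here, had 29.0 and 41.7 in VND7XVE controls against 2171.4 and 1982.9 with estradiol. Its VND7XVE effect was 5.36 ± 0.25, beside 5.41 ± 0.37 for AT1G10810, whose controls were dimmer. How close the 2 effects lie depends on the pseudocount. With a pseudocount of 1 they were 5.86 for AT1G10800 and 7.69 for AT1G10810, and with 64 they were 4.43 and 3.67.

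The nearest protein-coding neighbours of the members, themselves no members, were tested with limma, with Benjamini-Hochberg adjustment over all 14768 probe sets. Neighbours that met the rule (AT1G10800 and AT1G10810) were left out by their own effects. The shares of tested probe sets given beside the counts include the members. For 33 probe sets of such neighbours 5 rose in VND7XVE (15.2%, beside 8.40% of the tested probe sets naming 1 gene), 2 fell (6.06%, beside 5.65%) and 26 passed no threshold. After median centring, and likewise without the limma trend, 2 of the 5 rises were lost, those of AT3G61980 and AT1G76010. Their median effect was -0.04, beside -0.02. The largest rise was that of AT5G19875, next to AT5G19870. It went from 718.7 and 756.6 to 1584.4 and 1852.3 in VND7XVE, by 1.20 ± 0.12 (limma, adjusted p = 1.94e-06), and from 694.8 and 767.1 to 956.1 and 1105.6 in SND1XVE, by 0.48 ± 0.12 (adjusted p = 0.0102). The SND1XVE call was lost without the limma trend (adjusted p = 0.0692), without SND1XVE control replicate 1 (0.0734) and without SND1XVE estradiol replicate 2 (0.0977).

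AT5G59840, which encodes a small GTPase of the Rab family and lies next to AT5G59845, went from 494.5 and 529.2 to 1075.5 and 1108.3 in VND7XVE. It rose by 1.07 ± 0.12 (limma, adjusted p = 6.75e-06) and stood at 0.10 in SND1XVE (adjusted p = 0.672). AT1G68440, AT3G61980 and AT1G76010 rose by 0.58, 0.41 and 0.38 in VND7XVE (adjusted p = 0.000487, 0.0118 and 0.0191). After median centring the adjusted p was 0.0539 for AT3G61980 and 0.0846 for AT1G76010, and without the limma trend 0.0832 and 0.0821. AT1G68440 and AT3G61980 rose in SND1XVE too, by 0.8 and 0.59 (limma, adjusted p = 1.77e-05 and 0.000716). AT1G76010 stood at 0.07 there (adjusted p = 0.724). AT5G15190, next to the peroxidase gene AT5G15180, fell from 1532.2 and 1629.8 to 813.0 and 750.5 in VND7XVE (adjusted p = 6.58e-05). AT5G07090 fell by 0.47 (adjusted p = 0.0205), a call lost without the limma trend (0.0695) and without VND7XVE control replicate 1 (0.0842) or 2 (0.143) or VND7XVE estradiol replicate 1 (0.189). In SND1XVE 3 of the 33 rose (9.09%, beside 9.27% of the tested probe sets naming 1 gene) and 3 fell (9.09%, beside 6.30%). Those that fell include AT5G15190 and AT5G07090, at -0.74 and -0.53 in SND1XVE (limma, adjusted p = 0.00111 and 0.00872). Both genes were thus called lower in both lines in the main fit, which held less well for AT5G07090. Its SND1XVE effect was -0.49 without SND1XVE control replicate 1 and -0.42 without SND1XVE estradiol replicate 1. Neither of these was called.

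**Figure D4:**
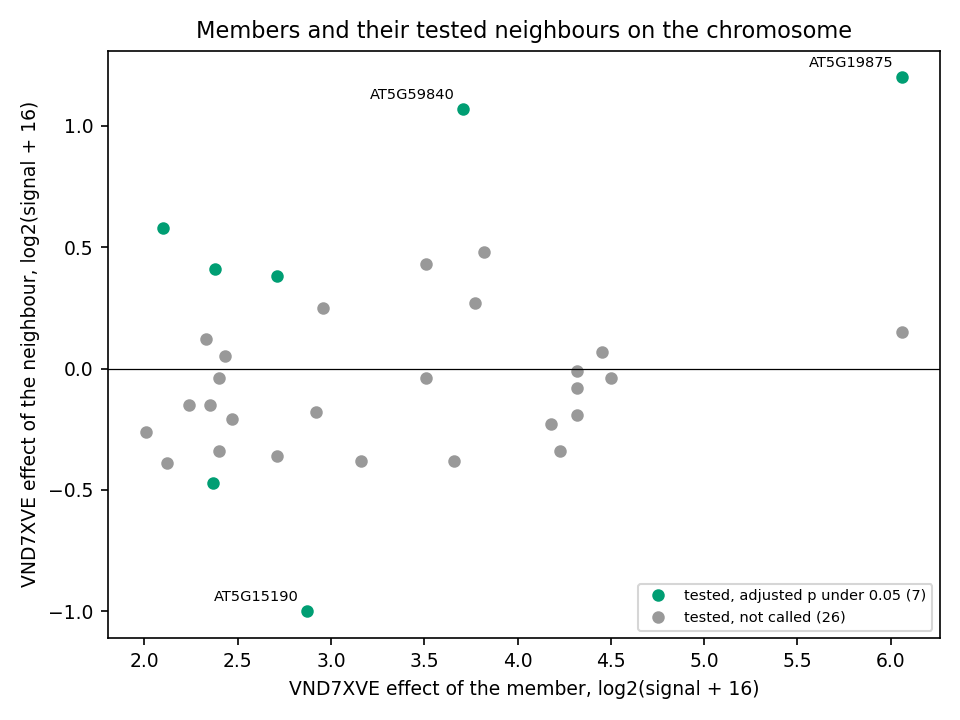
VND7XVE estradiol effect of each tested neighbour that is no member (vertical axis) against that of the member beside it (horizontal axis), both on the log2(signal + 16) scale, for 33 probe sets. Most points lie near 0 whatever the member's effect, and AT5G19875 at 1.20 and AT5G59840 at 1.07 lie highest.

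Known genes of vessel and wall formation outside the members were tested in the same fit. Of 14 genes of autolysis and cell death 7 were named and 6 tested, 1 of them the member AT4G18425. Among the other 5, 2 rose in VND7XVE (beside 8.15% of all tested probe sets) and 3 in SND1XVE (beside 9.37%), and none fell (beside 6.37% and 7.06%). After median centring, which shifted all effects by -0.11 in VND7XVE and -0.10 in SND1XVE, the calls over all probe sets were 1021 up and 1938 down in VND7XVE, in place of 1204 and 940, and 1089 and 1665 in SND1XVE, in place of 1384 and 1043. AT4G04460, an aspartic protease gene of developmental cell death, went from 11.4 and 25.4 to 232.5 and 227.8 in VND7XVE and from 13.5 and 23.5 to 166.8 and 158.5 in SND1XVE. It rose by 2.87 and 2.39 (limma, adjusted p = 2.89e-06 and 2.63e-05), and the difference of 0.48 did not pass the threshold (adjusted p = 0.713). The carboxypeptidase gene scpl48 rose by 2.61 in VND7XVE and by 3.46 in SND1XVE (adjusted p = 1.44e-11 and 1.12e-12).

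The vacuolar processing enzymes, proteases that mature vacuolar hydrolases, gave GAMMA-VPE at 0.21 in VND7XVE (adjusted p = 0.18) and a rise of 0.62 in SND1XVE (adjusted p = 0.000167). ALPHA-VPE and BETA-VPE stood at -0.12 and -0.41 in VND7XVE (adjusted p = 0.919 and 0.194). DELTA-VPE was not tested, with signals between 1.6 and 27.1. Of these proteases AT4G04460 and scpl48 thus rose in both lines.

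Of 17 xylan genes 4 were tested and none is a member. In VND7XVE 3 rose and 1 fell, with a median of 3.90, and in SND1XVE 3 rose and none fell, with a median of 2.12, although IRX15-L was called lower there after quantile normalization (-0.54, adjusted p = 0.0238) and median centring (-0.52, adjusted p = 0.0246). TBL34, of a family that acetylates xylan, rose by 5.32 in VND7XVE and 1.56 in SND1XVE (limma, adjusted p = 3.91e-09 and 0.00285). The effects differed by 3.75 (adjusted p = 0.000104), a difference called toward VND7XVE for 1.97% of the tested probe sets and toward SND1XVE for 1.09%. GUT2 and IRX15, which act in xylan backbone synthesis, rose in both lines, GUT2 by 2.94 and 2.68 and IRX15 by 4.87 in VND7XVE, while IRX15-L fell by 0.78 in VND7XVE. Of 21 lignin genes 4 were tested, of which 1 rose and 3 fell in each line. Beside these xylan and lignin counts, 8.15% of all tested probe sets rose and 6.37% fell in VND7XVE. In SND1XVE 9.37% rose and 7.06% fell. The peroxidase gene AT5G66390 rose by 6.77 and 5.36, and HCT, PRX52 and AT5G64120 fell by 0.69, 0.41 and 0.65 in VND7XVE. The fall of PRX52 was lost under 3 of 16 alternatives in VND7XVE (adjusted p = 0.0802 without the limma trend, 0.0597 without VND7XVE estradiol replicate 2 and 0.13 without control replicate 1 of that line). In SND1XVE it was lost under 4 of 16 (0.0796 without the trend, 0.0604 after quantile normalization, 0.0738 without SND1XVE control replicate 1 and 0.0617 without SND1XVE estradiol replicate 1). KINESIN-13A, of the microtubule machinery that shapes wall pits, stood at 0.34 in VND7XVE (adjusted p = 0.0759). The zinc finger gene AT1G66810 was the sole tested gene of 32 transcription factors of the wall network, at 0.12 (adjusted p = 0.9). None of the 7 genes of secondary wall cellulose was named.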

How the data were processed

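The authors deposited linear signal intensity for every probe set of each array, and the submitters' processing notes name GCOS. Its version is not given in the sources used here. The 2% trimmed mean was 500.0 or 500.1 on every array, so the deposited intensities were used without further normalization. Per the labels' protocols, biotin labelling followed a commercial Affymetrix kit. The number of arrays limits the precision.

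Gene names came from GEO's platform annotation, with symbols updated by RefSeq, which also gave chromosomes and neighbours. Of 22746 probe sets 13513 named 1 gene, 503 several and 8730 none. No sequence was available to print, and promoter motifs were not analysed.

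The members, roles and gene lists were chosen with earlier results of these data known. Background calls, neighbours and listed genes were tested with limma 3.58.1 in R 4.3.3 on log2(signal + 16), which understates changes of dim genes. The fit had 4 group means and an intensity trend, was two-sided, and used Benjamini-Hochberg adjustment at 0.05 over 14768 probe sets above the 40th percentile of an array on at least 2 arrays. On simulated data for the VND7XVE comparison (14768 probe sets, 200 changed) it recovered 84% of 2-fold and 99% of 4-fold changes. Of its calls there 5.67% were false. The simulated noise was independent and drawn with the fit's own spreads, so the error rate on the real arrays is not shown. Named genes followed a rule: the 24 largest named VND7XVE effects, the 5 highest VND7XVE estradiol signals and SND1XVE effects, the 3 genes on each side of a threshold, adjacent members, families with several members, and tested listed genes. Roles were assigned after the values were seen. Other members and the single neighbours were named after their values were seen. Tables were made with Python 3.11.15 and pandas 2.3.3, and figures with matplotlib 3.10.9. Alternatives changed the pseudocount, normalization, filter, thresholds of the rule, limma trend and replicate block, or left out each array.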

Additional observations from a re-analysis of the deposited data

Results flagged for a closer look

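Among the tested pathway genes and neighbours of members, themselves no members, 5 had effects that differed between the lines by the limma test of the difference itself (VND7XVE effect minus SND1XVE effect, adjusted over all tested probe sets, of which 1.97% were called in the direction of VND7XVE and 1.09% in that of SND1XVE). TBL34 differed by 3.75 (adjusted p = 0.000104, 3.44e-07 to 0.00929 over 16 alternatives). The peroxidase gene AT5G66390 differed by 1.40 (adjusted p = 0.000749), a call lost with a pseudocount of 1, where the difference was 0.93 (0.107). The carboxypeptidase gene scpl48 differed the other way, by -0.85 (adjusted p = 0.00221), a call lost without the limma trend (0.0798). Its signals were 2503.0 and 2742.0 in VND7XVE controls against 508.8 and 530.6 in SND1XVE controls.

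The neighbours of members AT5G59840 and AT5G19875 differed by 0.97 (adjusted p = 0.00312, 0.00153 to 0.0346 over 16 alternatives) and by 0.71 (adjusted p = 0.03). The call of AT5G19875 held under 8 of 16 alternatives, with adjusted p from 0.0202 to 0.18. It was lost without the low-signal filter (0.0708), without the limma trend (0.18), without SND1XVE control replicate 2 (0.0977) or SND1XVE estradiol replicate 1 (0.128), and without VND7XVE control replicate 1 (0.144), VND7XVE control replicate 2 (0.0869), VND7XVE estradiol replicate 1 (0.0506) or VND7XVE estradiol replicate 2 (0.175).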

How the results depend on the processing

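The rule found 98 to 112 members when each array was left out in turn, 103 with a pseudocount of 1, 75 with 64, 106 after quantile normalization and 105 after median centring, and 38 of the 106 members, 23 of them named, met it under all 12 of these settings. With a VND7XVE effect of at least 3 there were 46, and 64 among probe sets naming 1 gene. With a pseudocount of 1, 21 members left, among them AT4G18425, AT3G52900, CHIL and AT4G28650, whose SND1XVE effects became 1.27, 2.39, 1.42 and 1.22. Without SND1XVE estradiol replicate 1 the SND1XVE effects of AT5G27930 and AT3G54040 were 1.02 and 1.05, and without SND1XVE control replicate 2 those of AT5G26330, AT5G18970 and AT1G68500 were 1.02, 1.10 and 1.15. The median VND7XVE effect was 3.8 with a pseudocount of 1, 2.14 with 64 and 2.79 after median centring, and 2.90 to 2.93 with an array left out; the median SND1XVE effect was then 0.24 to 0.31. Without the limma trend 1326 probe sets were called in VND7XVE, 1584 in SND1XVE and 226 for the difference, in place of 2144, 2427 and 452, and without the low-signal filter 291 for the difference. With an array left out these counts ran from 1237 to 2254, 1608 to 2296 and 202 to 446. Counts in VND7XVE fell most without control replicate 1 (1237) and estradiol replicate 1 (1253), in SND1XVE without estradiol replicate 1 (1608), and for the difference without VND7XVE estradiol replicate 1 (202) or 2 (231). The causes were not tested. With the replicate block the counts were 2160, 2440 and 424; deviations of same-numbered arrays correlated at 0.0106 and 0.0131, so the numbers give no sign of pairing. The calls of the neighbours AT1G76010, AT3G61980 and AT5G07090 in VND7XVE were lost under 6, 5 and 4 of 16 alternatives. Promoter motifs were not run for want of sequences. Dim signals limit what can be said of SND1XVE for the 48 members that are bright in VND7XVE with estradiol alone.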
